A study of Mus musculus with 8 samples.

Results

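Malat1, Neat1, Kcnq1ot1, Pvt1 and Mir155hg are long noncoding RNAs that were taken by name as a noncoding reference for ribosome profiling, and they are 5 of the 53801 gene IDs in the count tables. All 5 IDs were matched to their symbols and to RefSeq entries classed as long noncoding RNA, a class that holds 4687 of the IDs. The study measured mRNA by RNA-seq and ribosome-protected fragments, or footprints, by ribosome profiling in resting B and T cells of the spleen of B6 mice. The 8 libraries formed 4 groups of 2: footprint libraries 1 and 3 of B cells, footprint libraries 1 and 2 of T cells, RNA-seq libraries 1 and 3 of B cells, and RNA-seq libraries 1 and 4 of T cells. Both cell types were magnetically sorted and held in culture medium for 2 hours, and the labels name no other treatment of the animals and give no age. The cells for ribosome profiling then received cycloheximide, which stalls elongating ribosomes, at 100 µg/ml for 15 minutes. The sources do not say whether the libraries of a group came from separate animals, so in B cell footprints the spread behind a p-value may be technical. Sex-linked counts place different animals in each RNA-seq group, and Y-linked counts do so for the T cell footprint libraries.

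Long noncoding RNAs are transcribed by RNA polymerase II and often spliced and capped like mRNAs, but many stay in the nucleus, away from ribosomes. Malat1 is held in nuclear speckles, where splicing factors collect, and its 3′ end is cut by RNase P and closed by a triple helix in place of a poly(A) tail. Neat1 is the scaffold around which paraspeckles form, with a short polyadenylated isoform and a long one that ends as Malat1 does. Kcnq1ot1 is an unspliced RNA of the paternal chromosome that silences genes of its imprinted cluster. Pvt1 is a spliced RNA beside Myc, and Mir155hg is the spliced precursor of miR-155, a microRNA induced on lymphocyte activation.

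In the GRCm38.p6 annotation Malat1 (ENSMUSG00000092341) spans 6983 bases at chr19:5795690-5802672 and contains the tRNA-like Mascrna. Neat1 (ENSMUSG00000092274) lies 22036 bases from it, spans 20773 bases at chr19:5824708-5845480 and overlaps no other annotated gene. Kcnq1ot1 (ENSMUSG00000101609) spans 83437 bases at chr7:143213111-143296547 inside Kcnq1, on the opposite strand. Pvt1 (ENSMUSG00000097039) spans 222230 bases at chr15:62037986-62260215 and overlaps Macroh2a3. Mir155hg (ENSMUSG00000097418) spans 2223 bases at chr16:84713023-84715245. Whether counting used strand is not given in the sources at hand, so reads of Kcnq1ot1 and Kcnq1 could not be told apart where exons of Kcnq1 lie. Kcnq1 itself had at most 1 count in any library, and Macroh2a3 likewise.

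Mir155hg holds the sequence that gives this host RNA its known function. The hairpin of miR-155, 65 bases at chr16:84714140-84714204 on the plus strand, is shown from RefSeq (GRCm38.p6) with the mature arms in capitals, and each mature arm is shown with its seed, bases 2 to 8, in capitals.
mir-155 hairpin: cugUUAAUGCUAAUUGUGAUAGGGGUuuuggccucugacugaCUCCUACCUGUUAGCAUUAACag
mmu-miR-155-5p: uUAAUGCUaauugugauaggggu
mmu-miR-155-3p: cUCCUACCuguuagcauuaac
The 5p arm, at chr16:84714143-84714165, is the arm known to act in lymphocytes, and the 3p arm lies at chr16:84714182-84714202. The seeds of the arms differ. The gene ID of the hairpin, Mir155, had 0 counts in all 8 libraries. It lies within Mir155hg, and how reads that fall on both were counted is not given in the sources at hand. The 0 counts are therefore no measure of the hairpin. The values given here are for the host RNA and not for the mature microRNA.

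Footprint libraries held between 136433 counts, in T cell library 2, and 627833. RNA-seq libraries held at least 8945905 and at most 10050986. The 8 T cell markers summed in B cell RNA-seq to 1.67% and 11.1% of their T cell level in libraries 1 and 3, and the 8 B cell markers in T cell RNA-seq to 0.773% and 1.69% of their B cell level in libraries 1 and 4. Counts of Xist and of 4 Y-linked genes divided the RNA-seq libraries by number. Xist had 2362 counts in B cell library 1 and 1437 in T cell library 1, against 2 in B cell library 3 and 3 in T cell library 4, and the Y-linked genes had the opposite order. Mice of different sex thus contributed to each RNA-seq group. In T cell footprints the Y-linked genes had 3 counts in library 1 and 35 in library 2, although library 2 is the shallower. In B cell footprints they had 72 counts in library 1 and 53 in library 3. Markers of other cell types had counts in RNA-seq too. CPM stands for counts scaled to a common total. Across the 4 RNA-seq libraries the 5 natural killer cell markers summed to 15.7 to 249 CPM. The 6 erythroid markers summed to 1.32 to 13.1 CPM, with 3 to 5 of them counted in a library. The 5 endothelial and stromal markers summed to 136 to 235 CPM, with 3 to 4 of them counted, so this sum rests on few genes. In such bulk libraries fewer cells of a type and less RNA per cell cannot be told apart.

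Malat1 held most of the counts of the 5 RNAs, and its RNA-seq level was higher in both B cell libraries than in both T cell libraries, although the difference missed the threshold. CPM totals were scaled by TMM, and n is 2 libraries per group throughout. Malat1 had 450.5 and 457.9 CPM in B cells against 276 and 318 CPM in T cells, from 4014 and 4189 counts in B cells against 2716 and 3005 counts in T cells. The groups did not overlap, and 30.0% of the 13929 genes tested likewise had both B cell libraries above both T cell libraries. The means were 454 ± 5.21 CPM in B cells and 297 ± 29.3 CPM in T cells (SD), a log2 difference of 0.61 ± 0.16 (SE) with an adjusted p of 0.0622 in edgeR's quasi-likelihood test with Benjamini-Hochberg adjustment. With other tools the same contrast passed the threshold of 0.05, at an adjusted p of 0.000713 in DESeq2 (22.6% of genes called) and of 0.0361 in limma voom (20.0% called). It also passed, at an adjusted p of 0.0319, in edgeR with a term for library number 1 (27.0% called), a term chosen after seeing the data.

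Neat1 differed more between libraries of a cell type than between the cell types. It had 67.9 and 160 CPM in B cell libraries 1 and 3, against 47.6 and 189 CPM in T cell libraries 1 and 4. The library numbered 1 was the low one in each cell type, and the groups overlapped. Library 3 had 2.35 times the level of library 1 in B cells, and library 4 had 3.97 times that of library 1 in T cells. B cells over T cells, the ratio was 1.43 in libraries 1 and 0.847 in libraries 3 and 4, so its direction turned with the library number. The log2 difference of −0.05 ± 0.74 had an adjusted p of 0.972 in edgeR. Without T cell library 4 it was 1.24 and without B cell library 1 it was 0.45, neither past the threshold.

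The higher Neat1 level in libraries 3 and 4 ran beside other differences between these libraries. The contrast of libraries 3 and 4 over libraries 1, chosen after seeing the data, gave a log2 difference of 1.61 ± 0.21 for Neat1, with an adjusted p of 0.198 in edgeR, where 0.0790% of genes were called. All 8 markers of myeloid cells had counts in each RNA-seq library. Their summed level was 139 CPM in B cell library 3 against 50.3 CPM in B cell library 1, and 268 CPM in T cell library 4 against 55.9 CPM in T cell library 1. The 12 immediate-early and NF-κB genes summed to 5298 CPM in B cell library 3 against 7241 CPM in B cell library 1, and to 3548 CPM in T cell library 4 against 10589 CPM in T cell library 1. The part of these differences, or of sex, in the level of Neat1 was not tested.

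**Figure D1:**
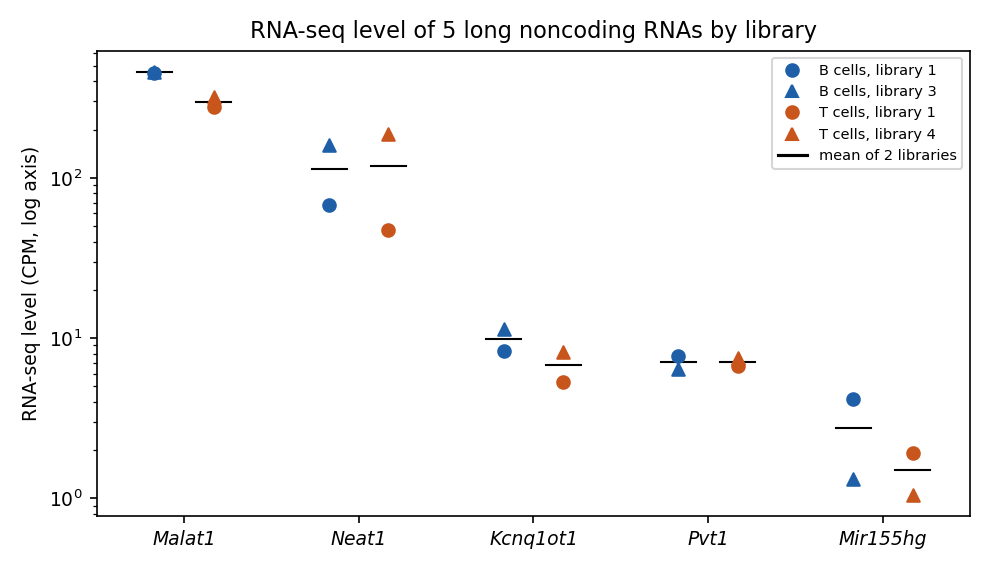
RNA-seq level of the 5 long noncoding RNAs in CPM (log axis), one point per library, with the black line at the mean of the 2 libraries of each cell type. Malat1 lies higher in both B cell libraries than in both T cell libraries, and the Neat1 points of each cell type lie far apart.

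Kcnq1ot1, Pvt1 and Mir155hg had few counts in both cell types, and none passed the threshold. Kcnq1ot1 had 8.31 and 11.4 CPM in B cells against 5.29 and 8.24 CPM in T cells. Its groups stood just apart, with a log2 difference of 0.54 ± 0.35 and an adjusted p of 0.363 in edgeR. Pvt1 had 7.74 and 6.45 CPM in B cells against 6.71 and 7.50 CPM in T cells. Its 4 libraries overlapped and stayed within a ratio of 1.20, and the log2 difference was −0.00 ± 0.27 with an adjusted p of 0.997 in edgeR. Mir155hg had 4.15 and 1.31 CPM in B cells against 1.93 and 1.06 CPM in T cells, from 37 and 12 counts in B cells against 19 and 10 counts in T cells. Here library 1 was the high one in each cell type, opposite to Neat1, and the B cell libraries overlapped the T cell range. The log2 difference of Mir155hg was 0.86 ± 0.71 with an adjusted p of 0.477 in edgeR, and it was −0.18 without B cell library 1. The summed level of the 4 plasma cell markers moved the same way. It was 371 CPM in B cell library 3 against 1520 CPM in B cell library 1, and 118 CPM in T cell library 4 against 1110 CPM in T cell library 1. A sum does not show that each of the 4 markers did so. The sums of the 12 immediate-early and NF-κB genes given above were likewise higher in library 1 of each cell type. The part of either in the level of Mir155hg was not tested.

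In all, 0 of the 5 RNAs differed between B and T cells past the threshold in edgeR, where 18.5% of the 13929 genes tested were called, and Malat1 alone reached an unadjusted p under 0.05 (0.0131). Levels can be compared between RNAs only per length, which gene span approximates for Malat1 and Kcnq1ot1, each with 1 annotated transcript. Per kilobase of gene span, CPM without TMM scaling was 60.7 and 66.7 in B cells against 38.7 and 48.1 in T cells for Malat1. Kcnq1ot1 had 0.0937 and 0.139 in B cells against 0.0620 and 0.104 in T cells on the same scale. Neat1 is left out here, since its isoforms differ in length and the counts do not tell them apart. RNA-seq selected polyadenylated RNA, and how far this lowers RNAs whose 3′ ends lack a poly(A) tail was not tested.

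In footprints too Malat1 made up most of the counts of the 5 RNAs. Malat1 had 17 and 16 footprints in B cells against 46 and 30 in T cells. Neat1 had 1 and 1 in B cells against 11 and 3 in T cells. Pvt1 had 1 and 1 in B cells against 3 and 1 in T cells, so that neither B cell library held more than a single footprint of either RNA. Kcnq1ot1 had 0 in both B cell libraries and 1 and 0 in T cells, and Mir155hg had 0 in both B cell libraries and 0 and 1 in T cells. The 5 RNAs together took 0.00802% and 0.00774% of footprint counts in B cells against 0.00972% and 0.0257% in T cells. In RNA-seq they took 0.0507% and 0.0648% in B cells against 0.0330% and 0.0553% in T cells.

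Malat1 was the one member with enough footprints for a test between cell types. It had 79.6 and 84.1 CPM in B cells against 73.8 and 239 CPM in T cells, so T cell library 2 stood far above the other footprint libraries, which lay close together. The log2 difference of −0.77 ± 0.58 had an adjusted p of 0.503 in edgeR, where 13.2% of 4771 genes were called, and it was 0.10 without T cell library 2. Small nuclear and nucleolar RNA genes, whose RNAs also stay in the nucleus, took 18.9% of the counts of that library and 9.51% of those of T cell library 1, and 2.79% and 10.7% of those of B cell libraries 1 and 3. That library is also the shallowest. The Y-linked genes had 35 counts in it and 3 in T cell library 1, so the animals differed too. The part of these differences in the level of Malat1 was not tested.

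**Figure D2:**
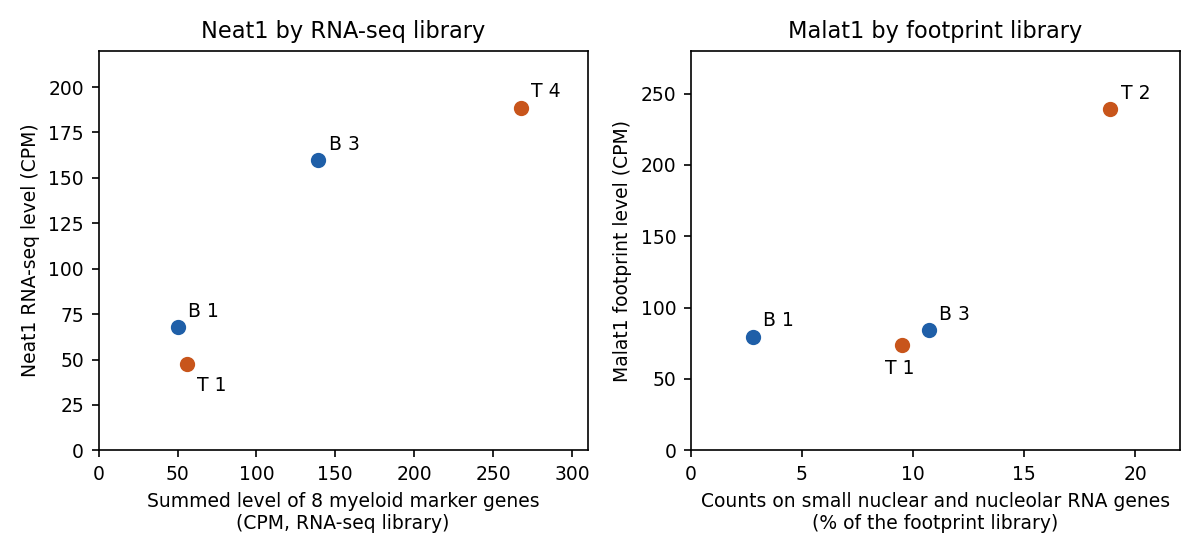
Left, Neat1 level against the summed level of 8 myeloid markers in the 4 RNA-seq libraries, both in CPM. Right, Malat1 level in CPM against the percentage of counts on small nuclear and nucleolar RNA genes in the 4 footprint libraries. Points are labelled by cell type and library number, and T cell library 2 is highest on both axes.

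Set against their own RNA-seq levels, Malat1 and Neat1 had fewer footprints in both cell types. In B cells 33 footprints of Malat1 were counted (95% Poisson interval 22.7 to 46.3), against 209 at its share of RNA-seq counts, or 6.32-fold fewer (4.50 to 9.18). For Neat1 2 were counted (0.242 to 7.22) against 52.6 at its RNA-seq share, 26.3-fold fewer (7.28 to 217). In T cells 76 footprints of Malat1 were counted (59.9 to 95.1) against 230.2, 3.03-fold fewer (2.42 to 3.84), and 14 of Neat1 (7.65 to 23.5) against 90.7, 6.48-fold fewer (3.86 to 11.8). These intervals cover counting error only. Across the 5 RNAs 37 footprints were counted in B cells against 270.2 at the RNA-seq share, and 96 in T cells against 333.

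**Figure D3:**
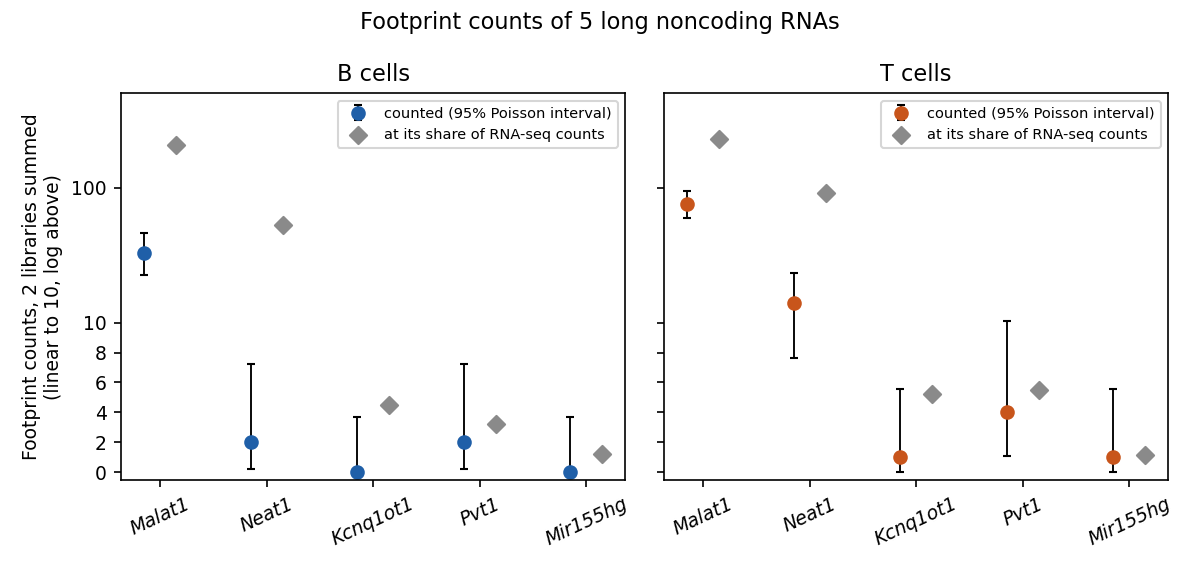
Footprint counts of each RNA summed over the 2 libraries of a cell type (filled points, 95% Poisson intervals) and the counts it would have at its share of RNA-seq counts (grey diamonds), on an axis that is linear to 10 and logarithmic above. The intervals of Malat1 and Neat1 lie below the diamonds in both cell types, that of Kcnq1ot1 in B cells only, and those of Pvt1 and Mir155hg hold them.

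The edgeR model over the 8 libraries, which includes the spread between libraries, called Malat1 and Neat1 lower in footprints in each cell type. In B cells the log2 difference, footprints over mRNA, was −2.70 ± 0.46 for Malat1 (adjusted p = 0.00624 in edgeR) and −4.74 ± 1.22 for Neat1 (adjusted p = 0.0296). These are 2 of the 5 RNAs, where 12.3% of 13227 genes were called lower, 6.51% higher and 18.8% in either direction. In T cells it was −1.35 ± 0.43 for Malat1 (adjusted p = 0.0483 in edgeR) and −2.83 ± 0.85 for Neat1 (adjusted p = 0.0393), again 2 of 5, where 18.6% of genes were called lower, 8.91% higher and 27.5% in either direction.

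These calls did not hold equally when single libraries were left out. Leaving out a library also changed the set of genes tested, which was 13227 with all libraries. It was 15015 to 15133 without a footprint library and 9820 to 9897 without an RNA-seq library. A call kept or lost therefore need not reflect the library alone. The B cell call of Malat1 held when any library was left out, with log2 differences of −2.76 to −2.66 and adjusted p-values of at most 0.0455 in edgeR. In T cells its difference passed without footprint library 2 (−2.08, adjusted p = 0.00796) and failed without any other single library, down to −0.58 (adjusted p = 0.326) without T cell footprint library 1. The Neat1 call in B cells failed without any single footprint library of either cell type, with adjusted p-values of 0.0556 to 0.168 in edgeR, and held without any single RNA-seq library. In T cells the Neat1 call failed without any single footprint library and without T cell RNA-seq library 4, where the log2 difference was −1.49 (adjusted p = 0.105 in edgeR).

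Kcnq1ot1, Pvt1 and Mir155hg had 0 to 4 footprints in a cell type, and none was called in edgeR. Kcnq1ot1 had 0 in B cells against 4.53 at its RNA-seq share, at least 1.51-fold fewer when 3 counts over the group stand for 0, and its adjusted p was 0.0523 in edgeR. It passed in limma voom (adjusted p = 0.0489, 10.4% of genes called lower) and in edgeR with no filter (adjusted p = 0.0400, 6.89% called lower). In T cells it had 1 (interval 0.0253 to 5.57) against 5.23, with an adjusted p of 0.0969. Pvt1 stood nearest to its RNA-seq share among the RNAs with footprints in both cell types, with 2 counted against 3.26 in B cells and 4 counted against 5.51 in T cells. Its log2 differences were −0.74 ± 0.70 in B cells (adjusted p = 0.586 in edgeR) and −0.57 ± 0.58 in T cells (adjusted p = 0.519). For Mir155hg, with 0 counted against 1.25 in B cells and 1 against 1.17 in T cells, no difference was detectable at this depth.

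By group means, the footprint level relative to mRNA was lowest for Neat1 and highest for Pvt1 among the 3 RNAs with footprints in both cell types. Footprint CPM of Malat1 was 15.4% of its mRNA CPM in B cells and 43.2% in T cells. For Neat1 it was 3.74% in B cells and 14.7% in T cells, and for Pvt1 59.9% in B cells and 74.9% in T cells. In single T cell libraries, footprint library 1 over RNA-seq library 1 gave 24.0% for Malat1 and 33.4% for Neat1, the reverse order. Footprint library 2 over RNA-seq library 4 gave 59.7% for Malat1 and 10.04% for Neat1. Of 11117 protein-coding genes, 13.3% had a lower log2 difference than Malat1 in B cells and 25.1% in T cells, and 9.60% lay below Neat1 in B cells and 10.4% in T cells. Of the 587 RNAs of the long noncoding class tested, 64.9% had no footprint in B cells and 56.0% none in T cells, against 11.0% of protein-coding genes in B cells and 7.71% in T cells. The classes were not matched for RNA-seq level. Without TMM scaling, 1 footprint was already 4.22 and 4.30 CPM in B cell libraries 1 and 3. These shares can therefore reflect RNA level and depth, and they are not read as a difference in translation. No place of Malat1 or Neat1 within their own class is given, since most of its RNAs have values fitted from 0 footprints. Protein-coding genes without a footprint have such values too. The shares of protein-coding genes below Malat1 and Neat1 can therefore partly reflect low depth.

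**Figure D4:**
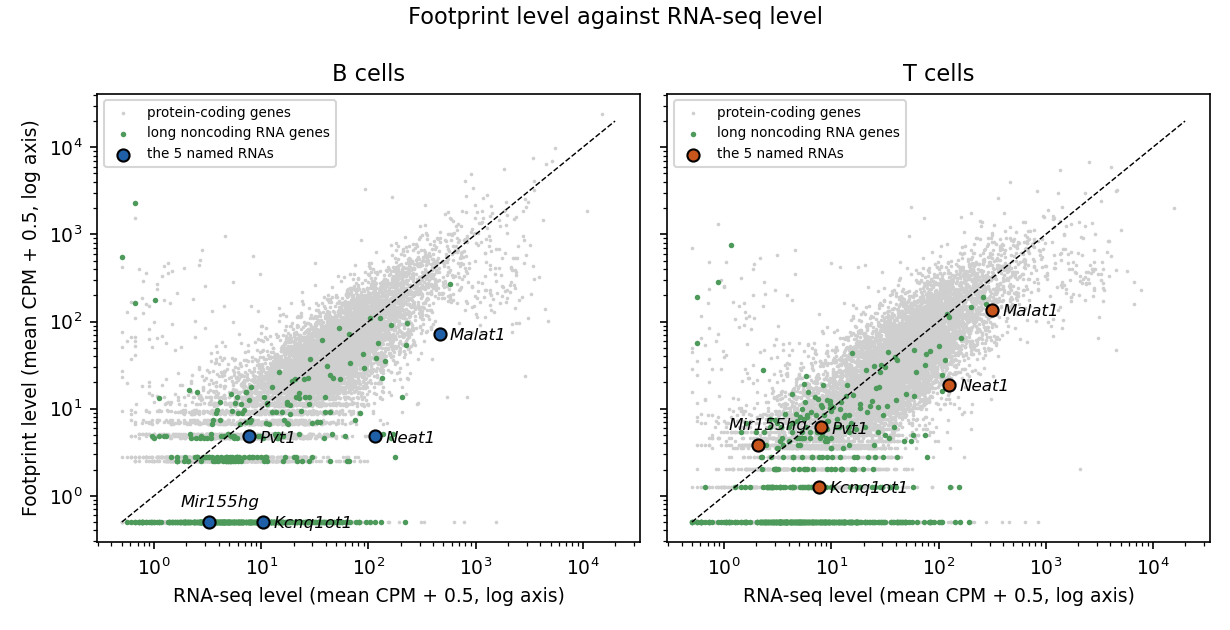
Mean footprint level against mean RNA-seq level (CPM + 0.5, log axes) for protein-coding genes (grey), long noncoding RNA genes (green) and the 5 named RNAs (large points), with the dashed line at equal levels. Malat1 and Neat1 lie below the line in both cell types, and Pvt1 lies close to it.

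The difference between the cell types in footprints over mRNA was tested itself, since Malat1 and Neat1 were called in both. It was −1.34 ± 0.63 for Malat1 (adjusted p = 0.875 in edgeR), −1.91 ± 1.84 for Neat1 (adjusted p = 0.943) and −0.17 ± 0.94 for Pvt1 (adjusted p = 0.9999), B over T cells on the log2 scale. None of the 5 passed, and neither did any other gene (0% of 13227 in edgeR, with 748 at an unadjusted p under 0.05, and 10 genes called by DESeq2). The standard errors, of 0.63 to 1.84, leave room for sizeable differences either way.

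Other long noncoding RNAs with nuclear or chromatin roles gave a wider range. Of 13 tested in RNA-seq, 1 was higher in B cells and 1 lower, with a median log2 difference of 0.14 against −0.01 over all genes. Ftx, an activator of Xist, was higher, at 27.0 CPM in B cells and 6.49 CPM in T cells (log2 2.06 ± 0.20, adjusted p = 0.00712 in edgeR). Airn, the imprinted antisense RNA of Igf2r, was lower, with 1 and 3 counts in B cells against 25 and 27 in T cells (log2 −3.53 ± 0.60, adjusted p = 0.0237 in edgeR). In footprints over mRNA 3 of 14 were higher and 3 lower in B cells, and 3 higher and 5 lower in T cells. Those higher were Rpph1, Terc and Rn7sk in both cell types, and no other RNA of the list was called higher. Their ratios rest on low RNA-seq counts. Rpph1 had 0 in each library, and Terc had 0 and 0 in B cells against 1 and 2 in T cells. Rn7sk had 40 and 33 in B cells against 59 and 54 in T cells. Over all genes 6.51% were called higher and 12.3% lower in B cells, and 8.91% higher and 18.6% lower in T cells. The median was −2.25 in B cells and −1.71 in T cells, or −0.77 in B cells and −1.31 in T cells with genes that lack counts in an assay set at their bound, against −0.44 in B cells and −0.54 in T cells over all genes.

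Single RNAs of this list show what a low and a high footprint count look like in these libraries. The gene listed as 2900097C17Rik had 2 and 0 footprints in B cells against 1 and 0 in T cells. Its RNA-seq counts were 1492 and 1416 in B cells against 1329 and 1490 in T cells. RefSeq gives its symbol as a synonym of both Norad and Bscl2. Whether this RNA stays in the nucleus was not tested, and its low footprint count is not read as a sign of that. Tug1, a chromatin-linked RNA, had 4 and 13 footprints in B cells against 16 and 1 in T cells, beside RNA-seq counts of 985 and 1091 in B cells against 856 and 1090 in T cells. Rpph1, the RNA of RNase P, lay at the other end, with 23 and 59 footprints in B cells against 61 and 8 in T cells beside 0 RNA-seq counts in all 4 libraries. Rpph1 is transcribed by RNA polymerase III and is not known to be translated.

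Host RNAs of small nucleolar RNAs are known to be exported and to carry ribosomes, unlike the nuclear RNAs. Of 9 tested, 3 were lower in footprints than in mRNA in B cells and 2 in T cells, and none was higher. Over all genes 12.3% were called lower in B cells and 18.6% in T cells. Their median log2 difference was −1.09 in B cells and −0.78 in T cells, against −0.44 in B cells and −0.54 in T cells over all genes. Those called in B cells were Snhg8 (−3.78 ± 0.63, adjusted p = 0.00549 in edgeR), Zfas1 (−2.63 ± 0.43, adjusted p = 0.00502) and Gas5 (−1.24 ± 0.37, adjusted p = 0.0477). In T cells they were Epb41l4aos (−2.81 ± 0.78, adjusted p = 0.0300 in edgeR) and Zfas1 (−1.56 ± 0.36, adjusted p = 0.0151). Snhg8 in B cells and both called host RNAs in T cells thus lay below Malat1, which was at −2.70 in B cells and −1.35 in T cells, though these differences from Malat1 were not tested. Between the cell types 0 of 9 differed in RNA-seq, with a median of −0.39.

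No mRNA for the proteins that share nuclear bodies with Malat1 and Neat1 passed the threshold between cell types. Of 17 paraspeckle proteins 0 differed between B and T cells in RNA-seq (median log2 0.07), and of 15 nuclear speckle proteins 0 differed (median 0.04). In footprints over mRNA the paraspeckle list had 2 higher and 2 lower in B cells and 3 higher and 4 lower in T cells. Sfpq, a core paraspeckle protein that binds Neat1, was among those higher in B cells (log2 1.10 ± 0.29, adjusted p = 0.0334 in edgeR). It was as high in T cells (log2 1.10 ± 0.29, adjusted p = 0.0257 in edgeR). The speckle list had 0 higher and 5 lower in B cells, and 1 higher and 4 lower in T cells. Both lists are to be read against the shares over all genes. These were 6.51% higher and 12.3% lower in B cells, and 8.91% higher and 18.6% lower in T cells. Srsf3, a splicing factor of speckles, was lower in B cells (−2.11 ± 0.34, adjusted p = 0.00490 in edgeR) and in T cells (−1.96 ± 0.33, adjusted p = 0.00459).

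Genes beside the 5 RNAs were examined in RNA-seq, since several of these RNAs are known to act on their neighbours. Over all genes 9.40% were called higher in B cells and 9.06% lower, and the few calls among these neighbours are to be read against those shares. Near Malat1 and Neat1, 1 of 10 genes was lower in B cells and 0 higher. It was Frmd8, a partner of the inactive rhomboid proteins, at 71.9 CPM in B cells and 276 CPM in T cells (log2 −1.94 ± 0.21, adjusted p = 0.00878 in edgeR). In the Kcnq1ot1 cluster 1 of 8 was higher and 0 lower. It was Cd81, a tetraspanin of the B cell coreceptor, at 174.5 CPM in B cells and 30.1 CPM in T cells (log2 2.54 ± 0.37, adjusted p = 0.0163 in edgeR). At the Pvt1 locus 0 of 3 were called in RNA-seq. Myc, the transcription factor gene next to Pvt1, had 346 CPM in B cells and 149 CPM in T cells (log2 1.21 ± 0.35, adjusted p = 0.0785 in edgeR), while Pvt1 was at 7.10 CPM in B cells and 7.11 CPM in T cells. Near Mir155hg 1 of 4 was lower in B cells, App, at 4.07 CPM in B cells and 21.9 CPM in T cells (log2 −2.42 ± 0.53, adjusted p = 0.0418 in edgeR).

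Reported targets of miR-155 moved in both directions between B and T cells. Of 23 tested in RNA-seq, 5 were higher and 6 lower in B cells, where 9.40% of all genes were called higher and 9.06% lower, with a median log2 difference of −0.29 against −0.01 over all genes. Socs1, an inhibitor of cytokine signalling, was lower, at 12.0 CPM in B cells and 49.4 CPM in T cells (log2 −2.04 ± 0.17, adjusted p = 0.00552 in edgeR). Peli1, a ubiquitin ligase, was lower at 48.1 CPM in B cells and 151 CPM in T cells (log2 −1.65 ± 0.14, adjusted p = 0.00566 in edgeR). Of 12 immediate-early and NF-κB genes, which include known activators of Mir155hg, 3 were higher in B cells (Nfkb2, Relb and Rel) and 0 lower, with a median of 0.32.

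The genes named here as nearest to each RNA in profile over the 8 libraries were all protein-coding. How many noncoding RNAs were among the 8483 genes compared is not given. The class of the nearest genes is therefore not read as a property of these RNAs. Likeness was the root mean square difference of centred log2 CPM over 8 libraries, among 8483 genes. Zbtb22 lay nearest to Malat1 (0.195), followed by Ulk3 (0.219) and Ppp1cc (0.290), where the median gene was at 1.30. Ubqln4 (0.0941), H2-D1 (0.121) and R3hdm1 (0.124) lay nearest to Pvt1, where the median gene was at 0.764. For Neat1 the nearest genes were much farther off, at 0.619 for Tmem189, 0.633 for Zdhhc12 and 0.670 for Sfi1, where the median gene was at 1.96. Miga2 (0.265), Sdr39u1 and Myo19 lay nearest to Kcnq1ot1, and Zfp213 (0.701), Rpl13a and Iba57 to Mir155hg. The median gene was at 1.96 for Kcnq1ot1 and 1.68 for Mir155hg. In footprints the profiles of Pvt1, Kcnq1ot1 and Mir155hg rest on 0 to 3 counts in a library, so their nearest genes are uncertain.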

How the data were processed

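The authors deposited counts per gene for each of the 8 libraries, per the labels. Every value is whole. Per the submitters' processing notes FastQC, Bowtie2, TopHat, HTSeq and the mm10 build were used. Not given in the sources used here are versions, settings, strand and the annotation release. Of the count columns 0 were left unused and 0 rows were named for no gene. Per the labels' protocols, RNA-seq came from a kit that selects polyadenylated RNA, and footprints from nuclease-treated monosomes.

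Counts were tested by the quasi-likelihood test of edgeR 4.0.16 in R 4.3.3, with TMM, filterByExpr (minimum count 10, total 15) and Benjamini-Hochberg adjustment over all genes tested, at 0.05. B and T cells were compared within each assay (4 libraries). Footprints over mRNA and its difference between cell types came from a model of group means over 8 libraries. CPM used TMM-scaled totals. Counts at the RNA-seq share used raw totals. Floors of 3 counts cover counting error only. The alternatives were DESeq2 1.42.0, limma 3.58.1 voom, other scalings and filters, thinned RNA-seq, all 8 libraries in 1 fit, leaving out each library and a replicate block. A term for the libraries numbered 1 was added after seeing the data.

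The members, the 10 gene lists and the 7 marker lists were chosen with earlier results of these data known. The 5 RNAs are given whatever their result. The text may name, from a list, the 3 genes of smallest p, and Igf2r, Bscl2, Norad, Rn7sk and Tug1 are named outside that rule. Tug1 was chosen after its values were seen. Libraries of a group differed beyond sampling noise, at a chi-square over its degrees of freedom of 23.1 in B cell RNA-seq, 32.5 in T cell RNA-seq, 8.13 in B cell footprints and 5.35 in T cell footprints.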

Additional observations from a re-analysis of the deposited data

How the results depend on the processing

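Between B and T cells in RNA-seq the count of the 5 RNAs called was 1 (Malat1) in place of 0 under DESeq2, limma voom and the term for the libraries numbered 1, and 0 without any single library. In footprints over mRNA in B cells the count was 1 to 2 without a single library, in place of 2. In T cells it was 1 with RLE scaling, upper-quartile scaling, small RNA genes removed, DESeq2, limma voom, a mean CPM of at least 10 and TMM within each assay, and 0 to 1 without a single library, in place of 2. Malat1 kept its call in B cells in 17 of 17 alternatives and in T cells in 3 of 16. Neat1 kept its call in B cells in 12 of 17 and in T cells in 10 of 16, and lost it with limma voom in both. Kcnq1ot1 was called in B cells with limma voom and with no filter. Between B and T cells in RNA-seq, the log2 difference of Neat1 was 0.14 with limma voom, 0.13 with the term for library number and −0.79 to 1.24 without a single library. That of Pvt1 was 0.0019 with RLE scaling, 0.0018 with DESeq2, 0.0064 with no filter and −0.13 to 0.13 without a single library. That of Mir155hg was −0.18 to 1.47 without a single library. In footprints, B over T cells, Malat1 was at −1.58 to 0.10 without a single library. Footprints over mRNA of Mir155hg in T cells were 0.36 with DESeq2 and 0.58 with limma voom, and ran from −6.04, where no footprint is left, to 2.13 without a single library. The cause of these changes was not tested.

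Over all genes the calls in RNA-seq were 2572, against 1455 without B cell library 1, 1626 without B cell library 3 and 497 with thinned counts. In footprints they were 629, against 415 without T cell library 1. For footprints over mRNA they were 2484 in B cells, against 1281 to 2571 without a single library, and 3642 in T cells, against 947 to 4154. Depth limits the footprint results, since the values of Kcnq1ot1, Pvt1 and Mir155hg rest on 0 to 4 counts and that of Neat1 in B cells on 2.

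Library numbers shared by B cell RNA-seq and footprints do not pair the libraries. Deviations of the same number correlated at 0.00246 across 9092 genes, and Y-linked genes had 72 counts in B cell footprint library 1 but 8 in B cell RNA-seq library 1. With a replicate block 2 of the 4 RNAs tested were called in B cells, Malat1 and Neat1 as without it, at −2.66 for Malat1 and −4.64 for Neat1, and Mir155hg did not pass the filter. With the block 0 of the 5 differed between cell types in footprints over mRNA, and 87 genes did in place of 0. In T cells RNA-seq and footprints share number 1 alone. The T cell side of that fit thus rests on 1 pair, with 1 residual degree of freedom, and its calls are not read as a gain from pairing. Between B and T cells the assays share number 1 alone. In RNA-seq the libraries numbered 1 deviated together (correlation 0.545), as did their sex-linked counts, and the term for number 1, which puts libraries 3 and 4 together, acts as a block. It called Malat1 and 3755 genes in place of 2572. In footprints the correlation was 0.0753.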

Other observations

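Promoter windows of 250 bases before to 50 bases after the start, from RefSeq on GRCm38.p6, were found for 3 of the 5 RNAs, Malat1, Kcnq1ot1 and Mir155hg. The motifs searched, on both strands, were AP-1 as TGANTCA, CRE as TGACGTCA, ETS as GGAAGT, E-box as CACGTG and the TATA box as TATAAA. The sole match was ETS in Malat1. ETS was held by 23.8% of 32851 promoters of that length, AP-1 by 7.81%, CRE by 1.79%, E-box by 7.15% and TATA box by 13.6%. The GC content was 47.0% for Malat1, 53.3% for Kcnq1ot1 and 34.3% for Mir155hg, where the median promoter had 52.7%. Mir155hg held 0 CG dinucleotides, against 10 for Malat1, 9 for Kcnq1ot1 and a median of 7.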
